A study of Mus musculus with 9 samples.

Results

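In mouse hearts made to produce the nuclear receptor NR4A2, 555 genomic regions that already gave at least 20 CPM in the NR4A2 immunoprecipitate of control hearts gave at least 1.5 times as much. CPM are the authors' read numbers per region, scaled to about the same total over the 16884 regions in every mouse. This total ran from 989100 CPM in NR4A2 mouse 1 to 1009000 CPM in control mouse 1. A value is thus close to a share of the reads of a mouse inside these regions. Gain and loss are relative to the other regions, and a change in total signal was not tested. The 555 were taken from 16884 regions by 3 conditions: a mean of at least 20 CPM over the 3 control mice, a mean over the 3 NR4A2 mice of at least 1.5 times that, and every NR4A2 value above every control value. A control mean of at least 20 CPM was found in 11952 regions, called pre-marked here, so the 555 made up 4.64% of these and 3.29% of all regions. The values that chose these regions were the same NR4A2 and control values described below. Their size and the gap between the groups are therefore a description, with no test.

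The data are chromatin immunoprecipitation with sequencing (ChIP-seq) for NR4A2 from whole heart ventricle, 1 library per mouse, with 3 mice per group. The first group, Nr4a2-icTg, carries an Nr4a2 knock-in at the ROSA26 locus that Cre recombinase switches on, together with αMHC-MerCreMer, a tamoxifen-inducible Cre driven by the cardiomyocyte promoter of Myh6. The second group, the control, is formed by littermates with αMHC-MerCreMer alone, so both groups carry the inducible Cre and both received the drug. Mice of 8 to 9 weeks got a single injection of 40 mg/kg tamoxifen and were examined at day 3. The antibody was clone 9D12, and fly chromatin was added to each reaction, per the labels. Whole ventricle also holds cells other than cardiomyocytes, and in such tissue a signal in more cells and a stronger signal per cell cannot be told apart. ChIP signal at a gene is not its expression, so tissue markers could not be checked as transcripts.

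NR4A2, also known as NURR1, is an orphan member of the nuclear receptor superfamily and a close relative of NR4A1 and NR4A3. It binds DNA as a monomer at the NBRE, the motif AAAGGTCA, which holds the AGGTCA core shared by many nuclear receptors. Members of this family are induced rapidly by stress and hormonal signals, and NR4A1 and NR4A3 are known as regulators of glucose and lipid metabolism genes in skeletal muscle.

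Most of the 555 regions lay off the annotated promoters, and some of the promoters they touched held the NBRE. Promoter windows from RefSeq (build GRCm38.p6, 250 bases before to 50 bases after a start) were overlapped by 90 of the 555 regions, which touched 111 windows. Some windows overlap one another, mostly those of a single gene with several starts, so the same bases can count more than once. The windows are thus not all separate promoters. The NBRE, searched as AAAGGTCA on both strands, was present in 5 of these windows (4.50%), against 67 of 7506 windows overlapped by other pre-marked regions (0.893%), 2 of 486 overlapped by pre-marked regions that lost signal (0.412%) and 495 of all 32817 windows (1.51%). Lost here means the same rule mirrored, and other pre-marked regions are those that met neither rule. Because CPM are relative, lost signal is a lower share of the reads in the regions and is not shown to be less binding. The median ratio over all 11952 pre-marked regions was 0.878. Windows under regions that gained from a control mean below 20 CPM held it in 20 of 63 cases (31.7%). The AGGTCA core, which every NBRE also contains, was present in 25 of the 111 windows (22.5%), against 10.8% under the other pre-marked regions and 16.3% of all windows. These windows also differed in base composition: mean GC content was 56.9% under the 555 regions, 63.2% under other pre-marked regions, 52.1% under regions gaining from below 20 CPM and 53.8% over all windows. The part of base composition in the motif shares was not tested. A match is a run of letters and is not shown to be a bound site.

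The windows below are shown because they differ in sequence. Tex38, Sox6 and Upf3b hold the NBRE, Smco1, Eno3 and Perm1 hold the AGGTCA core outside an NBRE, and Gapdh holds neither. Each is 300 bases read 5′ to 3′ on the strand of its gene, and capitals mark the NBRE or, where there is none, the core, in either orientation (TGACCTTT and TGACCT when reversed). Tex38 is at chr4:115780985-115781284 on the minus strand. Sox6 is at chr7:116030998-116031297 (minus), Upf3b at chrX:37110273-37110572 (minus) and Smco1 at chr16:32271230-32271529 (plus). Eno3 is at chr11:70656926-70657225 (plus), Perm1 at chr4:156215677-156215976 (plus) and Gapdh at chr6:125165724-125166023 (minus).
Tex38: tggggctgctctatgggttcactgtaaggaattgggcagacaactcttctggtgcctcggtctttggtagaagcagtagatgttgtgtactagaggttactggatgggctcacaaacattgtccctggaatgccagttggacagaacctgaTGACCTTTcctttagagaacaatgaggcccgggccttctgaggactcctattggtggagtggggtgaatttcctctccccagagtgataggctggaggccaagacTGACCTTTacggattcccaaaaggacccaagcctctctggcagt
Sox6: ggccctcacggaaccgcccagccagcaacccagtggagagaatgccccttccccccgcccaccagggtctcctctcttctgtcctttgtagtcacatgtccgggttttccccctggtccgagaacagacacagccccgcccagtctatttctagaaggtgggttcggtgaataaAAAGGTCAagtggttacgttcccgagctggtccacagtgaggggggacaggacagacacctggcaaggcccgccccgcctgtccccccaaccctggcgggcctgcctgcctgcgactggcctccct
Upf3b: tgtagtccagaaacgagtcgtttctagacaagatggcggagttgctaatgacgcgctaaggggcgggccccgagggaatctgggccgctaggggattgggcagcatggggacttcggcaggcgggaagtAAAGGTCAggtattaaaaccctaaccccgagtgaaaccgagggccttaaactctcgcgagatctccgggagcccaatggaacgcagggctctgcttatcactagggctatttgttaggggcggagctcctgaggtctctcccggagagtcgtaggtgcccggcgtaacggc
Smco1: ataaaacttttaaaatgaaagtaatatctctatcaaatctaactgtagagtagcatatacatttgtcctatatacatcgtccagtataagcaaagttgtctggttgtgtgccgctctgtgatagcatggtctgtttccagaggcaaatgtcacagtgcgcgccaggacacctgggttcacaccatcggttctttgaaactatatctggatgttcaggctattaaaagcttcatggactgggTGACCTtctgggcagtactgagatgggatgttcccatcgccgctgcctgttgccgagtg
Eno3: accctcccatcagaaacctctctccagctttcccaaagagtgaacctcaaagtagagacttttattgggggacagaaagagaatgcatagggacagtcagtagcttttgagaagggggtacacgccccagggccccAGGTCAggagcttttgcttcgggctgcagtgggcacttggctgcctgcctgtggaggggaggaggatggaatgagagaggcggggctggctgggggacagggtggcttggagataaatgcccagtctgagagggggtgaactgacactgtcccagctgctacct
Perm1: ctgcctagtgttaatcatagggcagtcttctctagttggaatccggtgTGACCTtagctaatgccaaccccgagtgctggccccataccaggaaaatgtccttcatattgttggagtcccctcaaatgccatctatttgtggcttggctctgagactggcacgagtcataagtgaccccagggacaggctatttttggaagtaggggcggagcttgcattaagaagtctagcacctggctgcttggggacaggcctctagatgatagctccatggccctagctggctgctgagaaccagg
Gapdh: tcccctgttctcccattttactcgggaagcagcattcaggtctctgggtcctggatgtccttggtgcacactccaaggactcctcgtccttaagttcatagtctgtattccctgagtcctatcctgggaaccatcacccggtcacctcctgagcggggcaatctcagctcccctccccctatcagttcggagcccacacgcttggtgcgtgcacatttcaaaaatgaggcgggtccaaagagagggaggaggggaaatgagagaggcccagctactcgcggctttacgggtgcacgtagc
The Tex38 window was the only one of the 111 with more than 1 NBRE. Its first match begins 99 bases before the start of the gene and the other begins 105 bases further on, and both lie inside the region that gained signal. Windows with more than 1 NBRE numbered 7 among all 32817. The Sox6 core begins 74 bases before the start shown, which lies inside the Sox6 span, and the Upf3b core begins 119 bases before its start. In Smco1 the core begins 9 bases before the start, in Eno3 114 bases before and in Perm1 202 bases before. The core of each printed window lay inside the region measured. The other windows with an NBRE belong to the non-coding genes Rab10os and LOC102631992. Regions at the NBRE windows had ratios of 6.09 (Tex38), 1.89 (Sox6), 1.61 (Upf3b), 1.61 (Rab10os) and 1.51 (LOC102631992). Regions at the printed windows with the core alone had 3.68 (Smco1), 2.41 (Eno3) and 2.12 (Perm1), and Gapdh had 1.70. The ratios of the printed windows were thus not ordered by motif.

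Other motifs were searched in the same windows, on both strands. The TEAD motif CATTCCA was found in 8.11% of the 111 windows, against 2.32% under other pre-marked regions and 4.30% of all windows, and its 9 windows included Tex38, Eno3, Pgam2 and Hspb7. The AP-1 motif TGANTCA was found in 7.21%, against 3.78% and 7.81% of all. The E-box CACGTG was found in 9.01%, against 10.3% and 7.15% of all. The GATA motif AGATAAG was found in 3 windows (2.70%), against 1.09% and 3.05% of all. A fixed form of the MEF2 motif was found in 1 window, at the sarcomere gene Xirp2, and in 0.110% of all windows. These counts include overlapping windows of a single gene, at Mlip for TEAD and the E-box, at Ilvbl for the E-box, and at Ldb3 and Tysnd1 for AP-1.

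The largest ratio of group means was at the Tex38 promoter. The region, chromosome 4 from 115779854 to 115781411, gave 195, 216 and 174 CPM in NR4A2 mice, against 30.7, 27.3 and 38.0 CPM in control mice. The ratio of means was 6.09, and the lowest NR4A2 mouse stood 4.58-fold above the highest control mouse. Tex38, a gene named for its expression in testis, lies between Efcab14 and Atpaf1, both within 10 kb of the region.

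Of the other regions among the 10 largest ratios, several lay far from any protein-coding gene. A region 179165 bp from Inhba, which encodes an activin subunit, gave 86.9, 161 and 146 CPM in NR4A2 mice, against 30.7, 13.6 and 23.5 CPM in control mice (ratio 5.80). NR4A2 mouse 1 was the lowest of its group there and still far above all controls. A region 43098 bp from Zfand5, a zinc finger gene linked to protein breakdown in muscle, gave 120.3, 115 and 145 CPM in NR4A2 mice, against 20.5, 17.5 and 29.0 CPM in control mice (ratio 5.68). A region 32420 bp from Med21, a Mediator subunit gene, gave 112, 110.3 and 119 CPM in NR4A2 mice, against 21.5, 24.3 and 21.7 CPM in control mice (ratio 5.04). Mice within each group were nearly equal at this last region. The region nearest to Gm46617 also lay 22705 bp outside a gene (ratio 4.77).

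Within or beside genes, the large ratios were at Plppr5, Arl4d, Sugct, Tom1l2 and Trabd. Plppr5 encodes a phospholipid phosphatase-related membrane protein, and its region gave 128, 102 and 184 CPM in NR4A2 mice, against 20.5, 30.2 and 30.8 CPM in control mice (ratio 5.09). The region 1529 bp from Arl4d, which encodes a small GTPase, gave 105, 102 and 99.6 CPM in NR4A2 mice, against 14.3, 8.76 and 38.0 CPM in control mice (ratio 5.03). NR4A2 mice agreed closely there, while control mouse 3 was far above the other controls. Tom1l2, a gene of vesicle trafficking, had 144, 145 and 161 CPM in NR4A2 mice, against 25.6, 32.1 and 38.0 CPM in control mice (ratio 4.71). Trabd had 239.7, 183 and 286 CPM in NR4A2 mice, against 64.5, 40.9 and 45.3 CPM in control mice (ratio 4.70). The Sugct region reached a ratio of 4.72. Groups did not overlap at any of these regions, as the rule demands.

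At the other end of the scale were broad regions with strong control signal over genes of heart muscle. The strongest was 28336 bp long and lay over Ldb3, which encodes the Z-disc protein cypher (chromosome 14, 34562122 to 34590457). It gave 4180.2, 5184 and 4491.5 CPM in NR4A2 mice, against 3601, 2752 and 2386 CPM in control mice, or 4619 ± 514 against 2913 ± 624 CPM (SD, n = 3 each), a ratio of 1.59. Control mouse 1 came within 1.16-fold of the lowest NR4A2 mouse. At Actc1, cardiac actin (chromosome 2, 114045108 to 114053478), the values were 3059, 2511 and 1987 CPM in NR4A2 mice, against 1717, 1893 and 1135 CPM in control mice. The groups were separated there by 1.05-fold only, and the ratio was 1.59.

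The region of 11547 bp over Eno3, the muscle form of the glycolytic enzyme enolase, combined a strong control signal with a larger ratio. It gave 1829, 1824 and 2004 CPM in NR4A2 mice, against 717, 786 and 847 CPM in control mice, a ratio of 2.41. It also covers the neighbours Pfn1 and Spag7 (chromosome 11, 70653609 to 70665155), so the signal cannot be given to 1 gene. Csrp3, which encodes the muscle LIM protein of the Z-disc, had 1074, 1315 and 1172 CPM in NR4A2 mice, against 752, 519.7 and 505 CPM in control mice (ratio 2.00). The lowest NR4A2 mouse was 2.15-fold above the highest control mouse at the Eno3 region and 1.43-fold at this Csrp3 region. At the other 4 Csrp3 regions of the 555 this gap ran from 1.06-fold to 1.32-fold.

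Further strong regions lay on Gapdh, Aldoa, Slc2a4, Trdn and Hes1. Gapdh, a glycolytic enzyme gene, had 649, 735 and 785 CPM in NR4A2 mice, against 429, 438 and 411 CPM in control mice (ratio 1.70). Aldoa, the muscle aldolase, had 615, 537.5 and 619 CPM in NR4A2 mice, against 386, 331 and 329 CPM in control mice (ratio 1.69). Slc2a4 encodes GLUT4, the insulin-responsive glucose transporter, and its region, shared with Ybx2, had 729, 764 and 609 CPM in NR4A2 mice, against 335, 346 and 366 CPM in control mice (ratio 2.01). Trdn, triadin of the calcium release complex, had 527, 772 and 637 CPM in NR4A2 mice, against 461, 343 and 261 CPM in control mice (ratio 1.82). Hes1, a transcriptional repressor downstream of Notch, had 486, 421 and 614 CPM in NR4A2 mice, against 328, 331 and 293 CPM in control mice (ratio 1.60). Another pre-marked region at Hes1 lost signal (ratio 0.601). At Gapdh and Hes1 control mice lay within a narrow range. At Trdn they spread widely, and control mouse 1 (461 CPM) came close to NR4A2 mouse 1 (527 CPM).

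**Figure D1:**
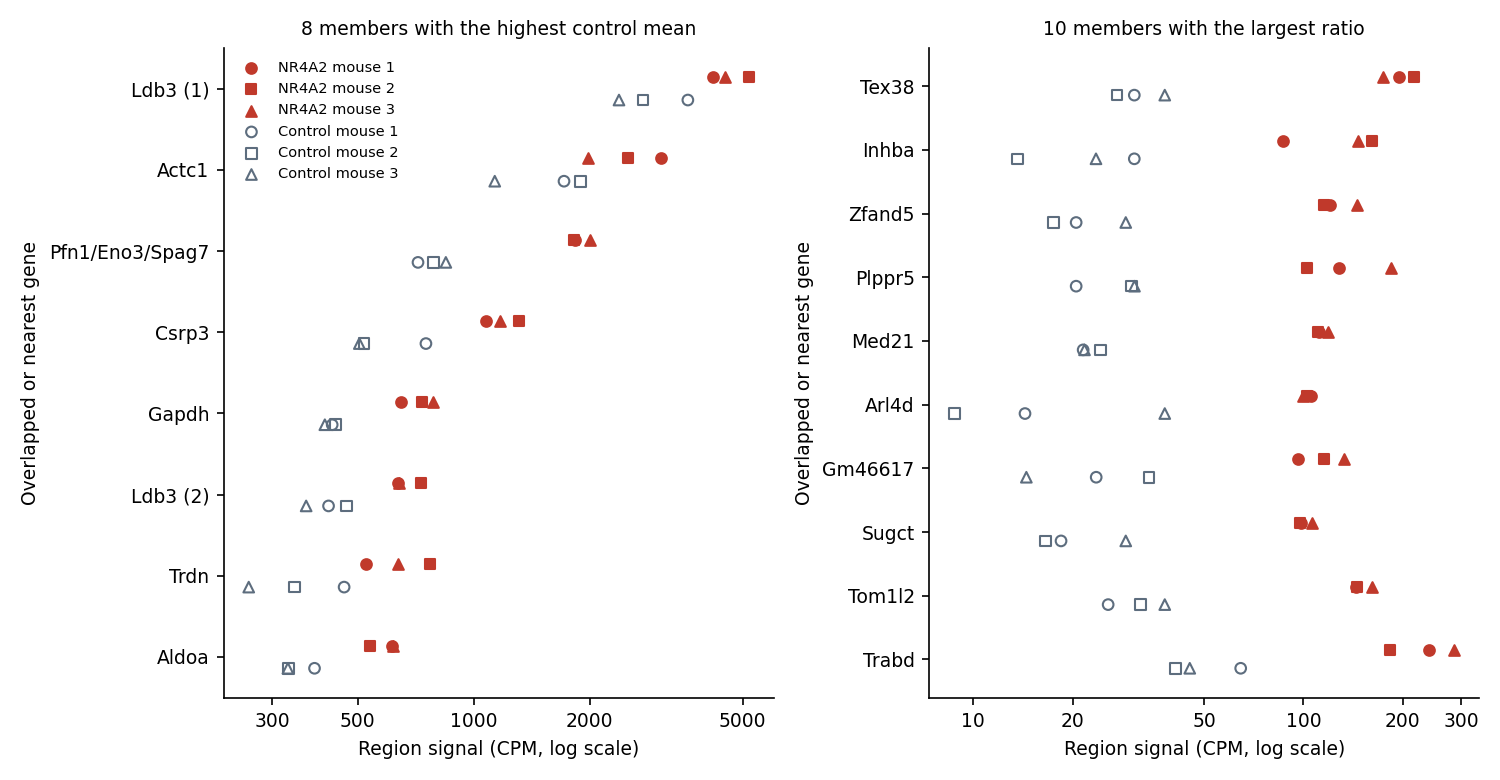
Signal of single regions in each mouse (CPM, log axis), for the 8 regions of the 555 with the highest control mean and the 10 with the largest ratio of means. Filled red symbols are NR4A2 mice and open grey symbols control mice, with 1 shape per mouse number. In the left panel the groups come close at Ldb3 (1), Actc1 and Trdn. In the right panel Tex38 shows 174 to 216 CPM in NR4A2 mice, against 27.3 to 38.0 CPM in control mice.

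Over the 555 regions the median signal was 66.7 CPM (group mean) in NR4A2 mice, against 29.7 CPM in control mice. The median ratio was 1.94, with quartiles of 1.70 and 2.41 and a range of 1.5 to 6.09. A ratio of at least 2 was reached by 258 regions (46.5%) and one of at least 3 by 57 (10.3%). Control means were under 30 CPM in 283 regions (51.0%) and at least 100 CPM in 36 (6.49%). None of the regions with a control mean of at least 60 CPM reached a ratio of 3. Across the 555 regions the rank correlation (Spearman) of control mean and ratio was -0.31, and that of region length and control mean was 0.66. Both are descriptions over regions of the same 6 libraries, and the control mean enters the ratio. The lowest NR4A2 mouse was at least 2-fold above the highest control mouse in 65 regions, and less than 1.1-fold above it in 82.

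**Figure D2:**
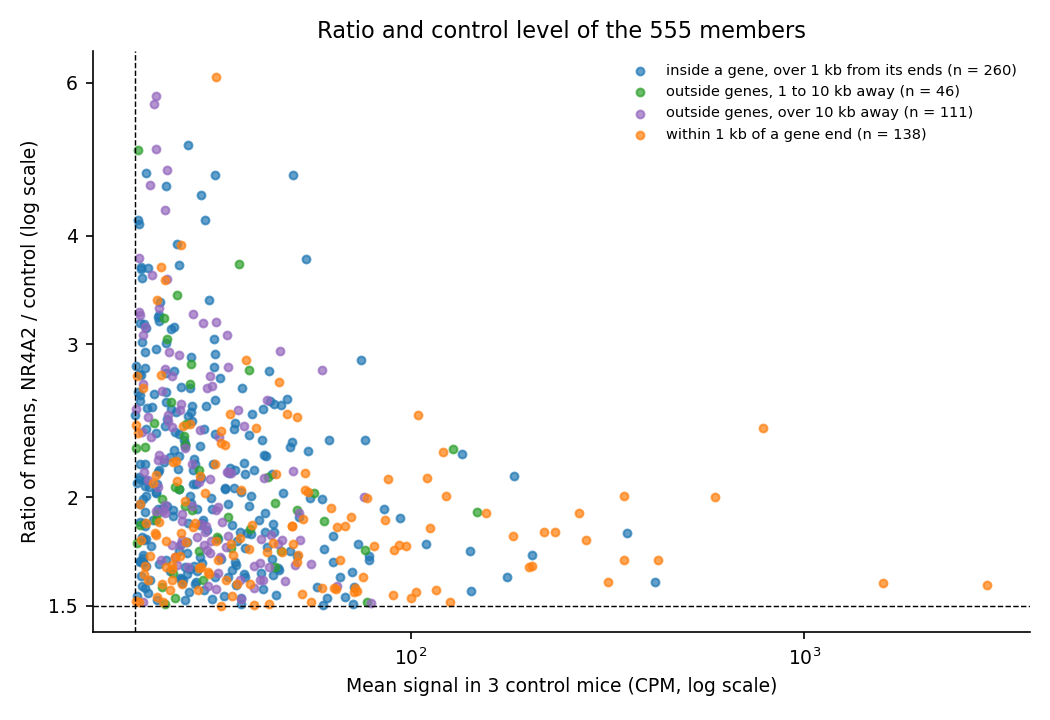
Each point is 1 of the 555 regions, by its mean control signal (CPM, log axis) and its ratio of NR4A2 to control means (log axis), coloured by position relative to protein-coding genes. Dashed lines are the limits of the rule, 20 CPM and a ratio of 1.5. Ratios of at least 3 lie only at control means under 60 CPM, and 25 of the 36 points at 100 CPM and above are within 1 kb of a gene end. At this level 1.37% of all 1823 pre-marked regions near gene ends met the rule, against 2.20% of those inside genes. It was met by 2.94% of those 1 to 10 kb outside and by 0 of 108 further out.

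Near the limits, the regions inside and outside the rule, named by their nearest gene, had similar values. Just inside the control minimum were regions at Ppm1j (control mean 20.01 CPM, ratio 2.49), 40560 bp from Slc8a1 (20.03 CPM, 2.53) and at Mt2 (20.1 CPM, 1.52). Just outside it were regions at Zfp469 (19.996 CPM, 1.52) and Retreg1 (19.98 CPM, 3.34), and a region 59666 bp from Hes1 (19.9 CPM, 5.04). Just inside the ratio minimum were regions at F3 (ratio 1.50045), Lrrfip1 (1.503) and Gpt (1.504), and just outside were regions at Mylk (1.499), Rgs2 (1.497) and Ahdc1 (1.496). A total of 700 regions met both numeric limits, and in 145 of these the groups overlapped. The largest ratio among those 145 was 2.43, at a region 250407 bp from Usp25 with 54.4, 33.1 and 117 CPM in NR4A2 mice, against 26.6, 21.4 and 36.2 CPM in control mice.

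The limma test was fitted to all 16884 regions on log2(CPM + 1), with p-values adjusted by the Benjamini-Hochberg method. It called 401 of the 555 higher in NR4A2 mice at an adjusted p under 0.05, beside 2475 (14.7%) of all regions. Of all pre-marked regions 3.72% were called higher. The authors' deposited table called 379 of the 555 up, beside 14.9% of all regions. The rule used this same contrast, so nothing is read from these counts. Without NR4A2 mouse 3, limma called 258 of the 555 and 1577 of all regions, and on reads not scaled for depth it called 95 and 1394. Every NR4A2 value exceeded every control value in 6.52% of all pre-marked regions and in 19.9% of all regions.

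Values of a mouse that took no part in the choice were also described. When 1 mouse was left out, the same rule on the other 5 mice chose 617 to 684 regions. In a left-out NR4A2 mouse, 60.7% (mouse 1), 70.1% (mouse 2) and 72.6% (mouse 3) of the chosen regions were at least 1.5-fold above the mean control signal, against 5.97%, 8.04% and 8.12% of all pre-marked regions. In a left-out control mouse, 71.0% (mouse 1), 75.5% (mouse 2) and 77.5% (mouse 3) of the chosen regions were at least 1.5-fold below the mean NR4A2 signal, against 8.81%, 9.36% and 13.7% of all pre-marked regions. The median ratio of the chosen regions in the left-out mouse ran from 1.68, for NR4A2 mouse 1, to 2.04, for control mouse 3. Over all pre-marked regions it ran from 0.865 to 0.913. The comparison value of the other group did take part in the choice, so these shares are not wholly independent of it. The shares over all pre-marked regions are also not matched in level. The median control mean was 54.2 CPM over all pre-marked regions, against 29.7 CPM over the 555. These shares are thus a description and no test of the choice.

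**Figure D3:**
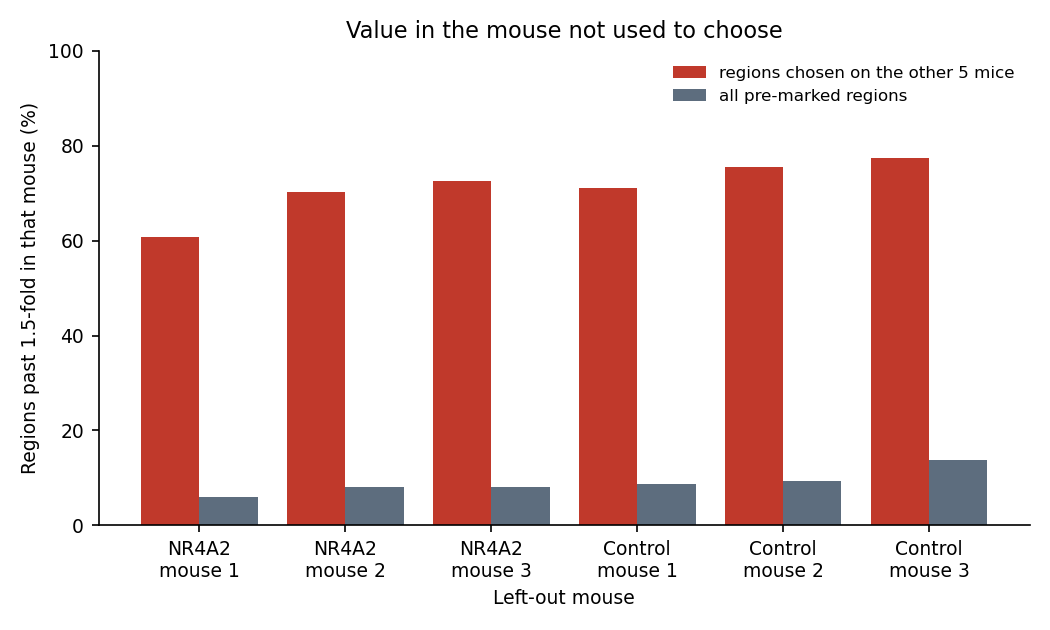
Share of regions (%) at least 1.5-fold apart from the other group in a mouse left out of the choice, with 1 pair of bars per left-out mouse. Red bars are the 617 to 684 regions chosen on the other 5 mice and grey bars are all pre-marked regions. The red bars lie between 60.7% and 77.5% and the grey bars between 5.97% and 13.7%.

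Among mice, the 555 regions together held 5.65%, 5.99% and 6.13% of the CPM of NR4A2 mice 1 to 3, against 3.16%, 3.00% and 2.81% in control mice 1 to 3. NR4A2 mouse 3 was the highest of its group in 275 regions, mouse 2 in 178 and mouse 1 in 102. Recovered reads in all regions numbered 1035856, 637635 and 794382 in NR4A2 mice, against 984905, 1027394 and 549700 in control mice. The median of the 555 regions rested on 65, 43 and 55 reads in NR4A2 mice, against 30, 31 and 17 reads in control mice, and the fewest reads were 14 in an NR4A2 mouse and 1 in control mouse 3. The 3 NR4A2 mice had pairwise correlations of log2(CPM + 1) over the 555 regions of 0.887 to 0.909, the control mice of 0.814 to 0.885, and mice of different groups of 0.800 to 0.856.

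The 555 regions were longer than most, with a median of 674 bp (230 to 28336 bp), against 534 bp for other pre-marked regions and 318 bp for regions that gained from below 20 CPM. Since a longer region collects more reads, the signal was also set per kb. The medians for the 555 regions were 99.7 CPM per kb in NR4A2 mice, against 48.5 in control mice. For the 10492 other pre-marked regions they were 97.2 in NR4A2 mice, against 108.6 in control mice. For the 2549 regions that gained from below 20 CPM they were 99.3 in NR4A2 mice, against 26.1 in control mice. The 905 pre-marked regions that lost signal by the mirrored rule had 64.8 CPM per kb in NR4A2 mice, against 112.6 in control mice. For the 2383 other regions below 20 CPM the medians were 61.1 in NR4A2 mice, against 52.2 in control mice. Per kb, the control signal of the 555 regions was thus under that of other pre-marked regions, near that of the 2383 other regions below 20 CPM and above that of the regions that gained from below 20 CPM. The term pre-marked holds for their total signal, not for its density. No input library was used here, so the background density was not measured. The sources used here do not say from which libraries the regions and their ends were defined. If they came from the NR4A2 libraries, lengths and values per kb would depend on the NR4A2 signal, and this was not tested.

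The share of pre-marked regions that met the rule fell steeply with control signal per kb. It was 154 of 196 regions (78.6%) under 40 CPM per kb and 259 of 871 (29.7%) at 40 to 60. It was 93 of 1732 (5.37%) at 60 to 80, 37 of 2322 (1.59%) at 80 to 100, and 12 of 6831 (0.176%) at 100 or more. The control values are part of the rule, and this is a description of what it selects. By length, the rule was met by 1.93% of pre-marked regions under 400 bp and 11.8% of those of 2 kb or more.

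**Figure D4:**
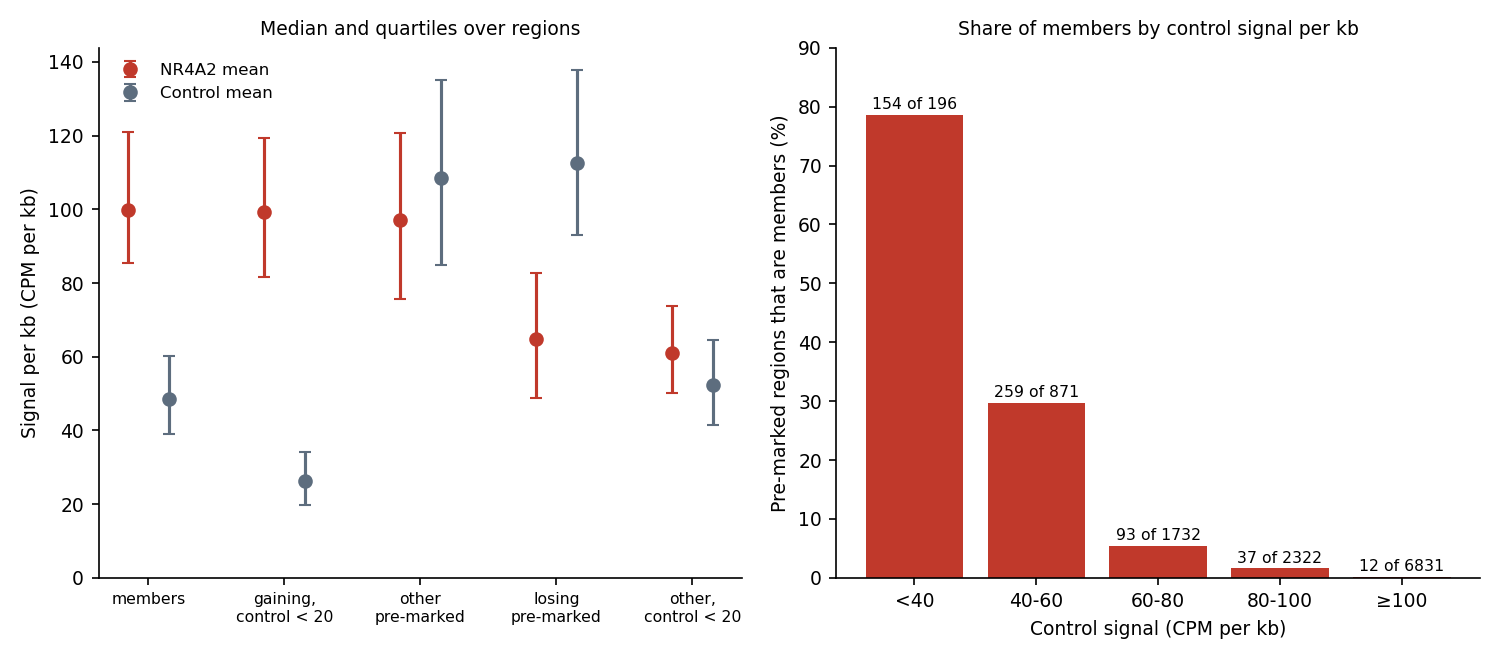
Left, signal per kb of region length (CPM per kb) in 5 sets of regions, with the median as a point and the quartiles as bars, for NR4A2 means (red) and control means (grey). Right, share of pre-marked regions (%) that met the rule, by control signal per kb, with counts above the bars. The 555 regions (members) have a median of 99.7 CPM per kb in NR4A2 mice and 48.5 in control mice, and the share falls from 78.6% to 0.176%.

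Position relative to genes was not used by the rule. Of the 555 regions, 260 (46.8%) lay inside a protein-coding gene more than 1 kb from its ends, against 23.8% of other pre-marked regions and 56.8% of regions gaining from below 20 CPM. Within 1 kb of a gene end were 138 (24.9%), against 65.0% of other pre-marked regions and 5.14% of regions gaining from below 20 CPM. More than 10 kb outside genes were 111 (20%), against 6.72% and 29.6%. The remaining 46 (8.29%) lay 1 to 10 kb outside. A promoter window was overlapped by 16.2% of the 555, against 54.5% of other pre-marked regions. Pre-marked regions that lost signal lay within 1 kb of a gene end in 56.2% of cases. The 555 regions thus lay between other pre-marked regions and regions gaining from below 20 CPM in all 3 of these position classes. The 2383 other regions below 20 CPM, which did not meet the gain conditions, had shares not far from those of the 555. These were 53.8% inside genes, 22.2% within 1 kb of a gene end and 14.8% more than 10 kb outside. Such positions are therefore not particular to regions that gained.

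Pre-marked regions were also compared within narrower ranges of control signal. Among regions with a control mean of 20 to 30 CPM, the rule was met by 5.71% of those within 1 kb of a gene end, 15.5% of those inside genes and 20.3% of those more than 10 kb outside. At 50 to 100 CPM the shares were 1.04% near gene ends, 3.44% inside genes and 4.17% more than 10 kb outside. At 100 CPM or more they were 1.37% near gene ends, 2.20% inside genes and 0 of 108 regions more than 10 kb outside. Ratios of at least 3 were found in 3.62% of the 138 regions near gene ends, 11.2% of the 260 inside genes and 16.2% of the 111 more than 10 kb outside. The median ratio was 1.79 near gene ends, 2.03 inside genes and 2.10 more than 10 kb outside.

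The regions were often near each other. Another of the 555 lay within 50 kb of 33.2% of them. One of the 555 lay within 50 kb of 9.71% of other pre-marked regions and 17.2% of the 2383 other regions below 20 CPM. Within 10 kb the shares were 22.0%, 3.87% and 7.76%. Regions of the other sets also lay near their own kind. Another of the same set lay within 50 kb of 33.3% of the 2549 regions gaining from below 20 CPM and of 20.1% of the 905 that lost signal. The median distance to the nearest region of any set was 2957 bp for the 555, against 12235 bp for other pre-marked regions. It was 4670 bp for the 2383 other regions below 20 CPM, so close spacing is not particular to the 555. A region that gained from below 20 CPM lay within 50 kb of 45.8% of the 555, against 20.3% of other pre-marked regions and 32.5% of those 2383. A pre-marked region that lost signal lay within 50 kb of 10.5% of the 555, against 13.7% and 12.6%. Whether near regions are parts of a single longer stretch was not tested. By chromosome the share of pre-marked regions that met the rule ran from 2.06% (4 of 194) on X to 7.0% (46 of 657) on chromosome 9.

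Each region was assigned to every protein-coding gene whose span, extended by 10 kb, it touched. This gave 517 genes, or 5.01% of the 10320 with a pre-marked region, and 111 regions had no gene. A single region of the 555 was found at 441 genes, a pair at 57, and more at 19. Regions that gained from below 20 CPM also lay at 175 of the 517 genes (33.9%), against 1138 of the 10320 (11.0%). Pre-marked regions that lost signal lay at 40 of the 517 (7.74%), against 1116 of the 10320 (10.8%).

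Genes with 4 or more of the 555 regions included the Z-disc genes Ldb3 and Csrp3, the giant sarcomere protein gene Ttn and the glycolytic gene Pfkm. Ttn, titin, had 8 of its 127 pre-marked regions in the set (6.30%), beside 4.64% of all pre-marked regions, with ratios of 1.54 to 1.73. The region of Ttn with the largest ratio had 43.9, 42.6 and 47.9 CPM in NR4A2 mice, against 36.9, 24.3 and 16.3 CPM in control mice. Ldb3 had 5 of 12 pre-marked regions, with ratios of 1.59 to 2.49, and Csrp3 had 5 of 7, with ratios of 1.66 to 2.26. Of the 5 Ldb3 regions 3 overlapped the gene, and the one with the ratio of 2.49 lay 924 bp outside it, over Opn4. Summed over all 8 of its regions, Csrp3 had 1990 CPM in NR4A2 mice, against 1027.5 CPM in control mice. Pfkm, muscle phosphofructokinase, had 5 of 8, with ratios of 1.59 to 2.00, some shared with its neighbour Asb8. At Actc1 all 3 regions and at Gapdh both regions were in the set. Only 1 of the 3 overlapped Actc1, and the others lay 917 and 2862 bp from it.

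The same pattern of several regions was seen at Ckmt2, Myzap, Mbnl1, Plscr2 and Ppargc1b, with 4 regions each, as at Asb8, at Zdhhc13 beside Csrp3, and at the neighbours Rasl11b and Scfd2. Ckmt2, the mitochondrial creatine kinase of striated muscle, had its strongest region at 478, 485 and 583 CPM in NR4A2 mice, against 333, 261 and 212 CPM in control mice (ratio 1.92). Mbnl1, a splicing regulator, spanned ratios of 1.87 to 4.57, and its largest ratio came from 101, 107 and 119.8 CPM in NR4A2 mice, against 35.9, 23.4 and 12.7 CPM in control mice. Myzap encodes an intercalated disc protein, and its strongest region had 404, 452 and 417 CPM in NR4A2 mice, against 253, 214 and 229.9 CPM in control mice (ratio 1.83). The lowest NR4A2 mouse was 1.44-fold above the highest control mouse at this Ckmt2 region, 2.82-fold at this Mbnl1 region and 1.60-fold at this Myzap region. The gap was narrower elsewhere in the same genes, at 1.11-fold in a weaker Ckmt2 region and 1.06-fold in a weaker Myzap region. Lmo7, Pkm, Rapgef5, Tbx20, Trdn and Actc1 had 3 regions each.

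Gene lists of heart biology, written for this work with earlier results of these data known, describe where the regions fall. Their shares are therefore a description, and an excess over all genes may come in part from how the lists were written. Of 43 sarcomere and Z-disc genes with a pre-marked region, 17 (39.5%) had one of the 555, against 5.01% of all such genes. Genes with many regions have more chances to hold one, so the share of pre-marked regions is also given. It was 35 of 312 regions (11.2%) at these genes, against 444 of 11046 (4.02%) at all genes. The median ratio of the regions was 1.83 at these genes, against 1.94 over all 555. Besides the genes above they included Myl2, ventricular myosin light chain, with 66.8, 82.0 and 109.7 CPM in NR4A2 mice, against 38.9, 36.0 and 45.3 CPM in control mice (ratio 2.15). The region 1734 bp from Des, desmin, had 75.4, 63.1 and 58.0 CPM in NR4A2 mice, against 33.8, 25.3 and 21.7 CPM in control mice (ratio 2.43). Nebl, nebulette, had a ratio of 2.63, and Smyd1, a muscle methyltransferase gene, had regions with ratios of 2.31 and 2.29, the latter 7086 bp from the gene. Myh6 and Myh7, the neighbouring myosin heavy chain genes, share a single region with a ratio of 1.69.

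Genes of glucose and glycogen use had the highest share of regions among the lists of heart function. Of 46 such genes with a pre-marked region, 12 (26.1%) had one of the 555, and 22 of 99 of their pre-marked regions (22.2%) met the rule. They included the transporter gene Slc2a4 and the glycolytic genes Hk2 (hexokinase 2), Pfkm, Aldoa, Tpi1, Gapdh, Pgam2, Eno3 and Pkm (pyruvate kinase). Pkm had 3 regions with ratios of 2.13 to 2.57, the first of 58.2, 59.9 and 66.8 CPM in NR4A2 mice, against 15.4, 31.1 and 25.3 CPM in control mice. Pgam2, muscle phosphoglycerate mutase, had 485, 545 and 468 CPM in NR4A2 mice, against 265, 267 and 306 CPM in control mice (ratio 1.79), in a region shared with Dbnl. Control mice were close together there, and NR4A2 mice stood apart from them. Hk2 had 69.7, 39.4 and 54.2 CPM in NR4A2 mice, against 27.7, 18.5 and 27.2 CPM in control mice (ratio 2.23). Ppp1r3a, Pygm and Mpc2 made up the 12 genes, with ratios of 1.53 to 2.19. Pygm also had a pre-marked region that lost signal (ratio 0.661).

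Fatty acid genes and genes of mitochondrial control had a region at 10 of 49 (20.4%). A pre-marked region that lost signal lay at as many, against 10.8% of all genes with a pre-marked region (1116 of 10320). Ppargc1b, a coactivator of oxidative metabolism, had 4 regions with ratios of 1.86 to 3.24, of which the strongest had 205, 233 and 208 CPM in NR4A2 mice, against 93.2, 68.1 and 63.4 CPM in control mice (ratio 2.88). Its relative Ppargc1a had 66.8, 78.8 and 82.0 CPM in NR4A2 mice, against 46.1, 23.4 and 47.1 CPM in control mice (ratio 1.95). Perm1, a muscle gene named for its induction by these coactivators, was not on the lists, and its strongest region had 353, 372 and 435 CPM in NR4A2 mice, against 180.3, 191 and 177 CPM in control mice (ratio 2.12). Lpin1, a phosphatidate phosphatase gene, had a ratio of 2.56, and a region between Ucp2 and Ucp3 had 2.38. Cd36, Acadl, Acacb, Lpl and Ech1 had ratios of 1.64 to 2.16. Lpl and Ech1 each also had 3 pre-marked regions that lost signal, with ratios down to 0.387 and 0.427, and the other genes named here had none. Summed over all its regions, Lpl had 822 CPM in NR4A2 mice, against 899 CPM in control mice, and Ech1 had 279 against 290 CPM. One gaining region of Ech1 lay 8993 bp away, inside Hnrnpl. By region the share was 13 of 147 (8.84%).

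Ion channel genes had 5 of 20, with Kcnj5, a potassium channel subunit gene, at 112, 128 and 119.8 CPM in NR4A2 mice, against 64.5, 38.0 and 38.0 CPM in control mice (ratio 2.56). Among the others, Kcnk3 had ratios of 2.03 (9602 bp from the gene) and 1.70, and Kcnh2 had 1.85. Fetal and stress genes had 6 of 28. Among them Nppb, which encodes B-type natriuretic peptide, had 365, 268 and 386 CPM in NR4A2 mice, against 212, 264 and 136 CPM in control mice (ratio 1.67). NR4A2 mouse 2 and control mouse 2 differed by little at Nppb. Ddit3, which encodes the stress factor CHOP, had a ratio of 2.19, Ccn1 had 1.94 and 1.73, and Mt1 and Mt2 share a single region at 1.52. Intercalated disc genes had 5 of 28, among them Ctnna1, alpha-catenin, at a ratio of 3.58, Cdh2 at 1.90, and Sgcd and Sorbs2 at 1.69 each. Autophagy genes had 4 of 30, with Map1lc3a at 2.93 and 1.85, Usp28 at 2.60, Hspb7 at 2.42 and the chaperone partner Bag3 at 2.07. Both Map1lc3a regions overlapped the neighbour Pigu and lay 9270 and 250 bp from Map1lc3a, and the Hspb7 region lay 194 bp from its gene. By region the shares were 13.6% for ion channel, 10.3% for fetal and stress, 6.52% for intercalated disc and 7.81% for autophagy genes, against 4.02% at all genes. A pre-marked region that lost signal lay at 4 ion channel, 2 fetal and stress, 5 intercalated disc and 6 autophagy genes, so losses were as many as gains at intercalated disc genes and more at autophagy genes.

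By gene, the other lists of heart function were closer to the share over all genes (5.01%). By region the shares were 5.13% for calcium handling, 5.45% for respiratory chain, 4.08% for signalling and 4.17% for circadian clock genes. Cardiac transcription factors had 7.81% by region, the same as autophagy genes and more than intercalated disc genes, against 4.02% at all genes. Calcium handling genes had 2 of 25, Trdn and the sodium-calcium exchanger Slc8a1 (ratio 1.74), and 8 of the 25 (32%) had a pre-marked region that lost signal, against 10.8% of all genes with a pre-marked region. Respiratory chain genes had 3 of 45, signalling genes 3 of 49 and circadian clock genes 2 of 18. The respiratory chain list counted Cox4i1 (ratio 1.66), Ndufb10 (2.01, 7871 bp away and at Rpl3l) and the creatine kinase gene Ckmt2. Ckmt2, which is not itself a respiratory chain gene, gave 4 of the 6 regions of this list. Among the clock genes were Cry2, a repressor of the clock (ratio 2.11), and Csnk1d, a casein kinase gene (ratio 2.19, 6132 bp away and inside Slc16a3). Cardiac transcription factors had 3 of 33: Tbx20 with 3 regions (1.63 to 2.09), Irx4 (1.52) and Klf2 (1.99, 9790 bp from the gene). Signalling genes were Prkce (2.07 and 1.94), Erbb4 (1.92) and Grb10 (2.06). Nuclear receptor and coregulator genes had 0 of 35, with 66 pre-marked regions between them. Of the marker lists, 3 of 8 cardiomyocyte genes had a region of the 555, 1 of 3 smooth muscle and pericyte genes (Pdgfrb, ratio 1.79), and 0 of 3 fibroblast, 0 of 5 endothelial and 0 of 1 macrophage genes with a pre-marked region. A pre-marked region that lost signal lay at 2 of the 8 cardiomyocyte genes and 2 of the 5 endothelial genes, and at none of the genes of the other 3 marker lists.

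**Figure D5:**
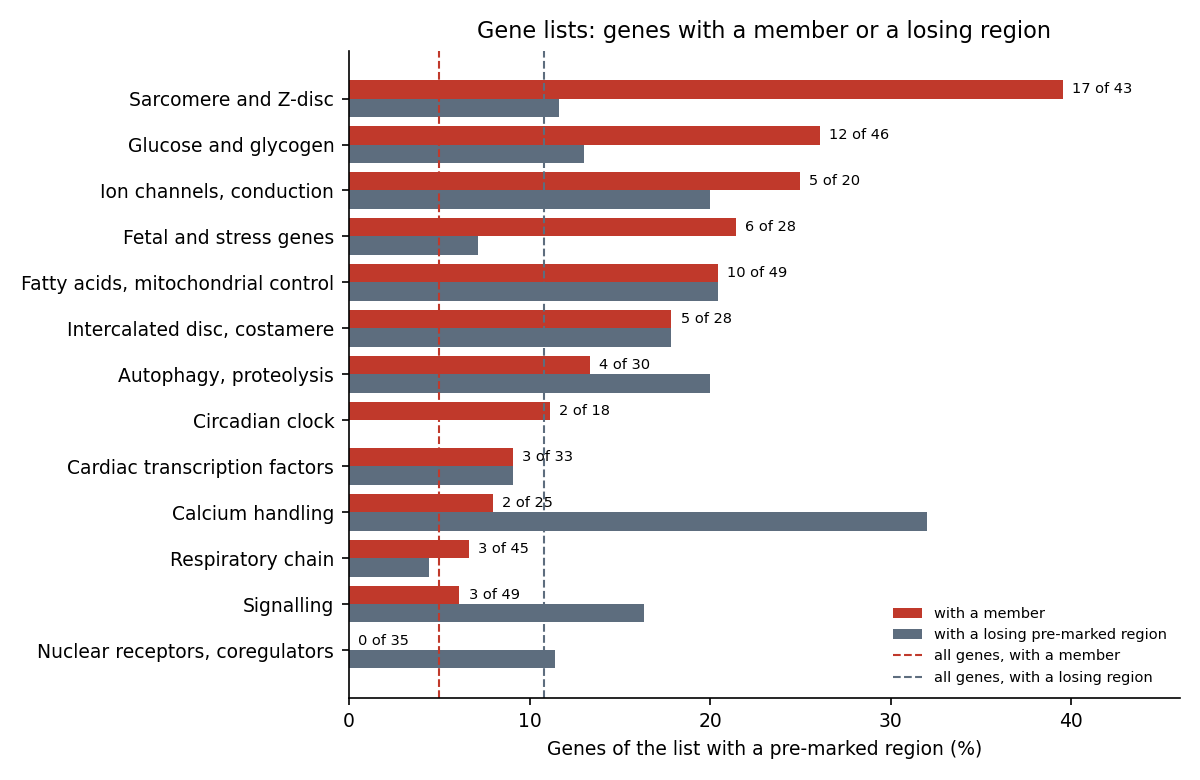
Share of genes (%) of each of 13 lists of heart function, marker lists left out, with at least 1 of the 555 regions (red bars, counts beside them) and with a pre-marked region that lost signal (grey bars), among the genes of the list that have a pre-marked region. Dashed lines give the same shares over all 10320 genes with a pre-marked region. Sarcomere and Z-disc genes (39.5%) and glucose and glycogen genes (26.1%) have the longest red bars of the lists drawn, and calcium handling genes (32%) the longest grey bar.

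At 40 of the 517 genes (7.74%) a gain and a loss of pre-marked signal were both found, beside a loss at 10.8% of all genes with a pre-marked region. The examples below describe single genes. Gpam, an enzyme gene of triglyceride synthesis, had a gaining region of 62.1, 80.4 and 94.6 CPM in NR4A2 mice, against 28.7, 21.4 and 25.3 CPM in control mice. It also had a losing region of 88.8, 53.6 and 73.2 CPM in NR4A2 mice, against 111, 108 and 138 CPM in control mice. The groups were apart in opposite directions at these regions, which lie less than 20 kb from each other. Adssl1, a muscle gene of purine metabolism, had ratios of 2.53 and 0.595 at its gaining and losing regions. Corin, which encodes the protease that activates natriuretic peptides, had gains of 2.80 and 1.65 and a loss of 0.589. Gatad2a, Col4a2 and Nfix had gains of 2.70, 2.67 and 2.29, and losses of 0.620, 0.418 and 0.625. The gaining region of Gatad2a lay within 10 kb of the gene and did not overlap it.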

How the data were processed

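The authors' deposited table gives CPM for each of 6 mice in 16884 regions, and columns were matched to mice by name. The submitters' processing notes name BWA and the build GRCm38 (mm10). Nothing in the sources used here names the peak caller, the counter or any use of the fly spike-in. The table also holds log2 values (the authors' fold change and mean CPM) with a p-value and an FDR of the authors, per the file headers. The antibody test libraries and the pooled input have no column and were not analysed here.

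All CPM values were whole multiples of 1 read (tolerance 0.001), which recovered 549700 to 1035856 reads per library. One read was worth 0.955 to 1.81 CPM. Intervals cover counting error only. The samples in a group are separate mice.

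The regions and the gene lists were chosen with earlier results of these data known. All 579 list entries matched a gene. Regions were compared with limma (version 3.58.1, R 4.3.3; trend, robust) on log2(CPM + 1) over all regions, tested on simulated data. edgeR (4.0.16) and DESeq2 (1.42.0) on recovered reads were alternatives. Positions use the spans of protein-coding genes in RefSeq GRCm38.p6, without exons, and promoter windows exist for 79.9% of these genes. Named regions were the 10 highest control means, 10 largest ratios, 8 largest differences, 5 longest, those beside the limits, up to 4 per list, genes with 3 or more regions, printed promoters and up to 6 genes with both directions. Genes given as examples of a motif, and the place of Perm1 beside Ppargc1a, were chosen after their values were seen. Values for some individual genes are not reported here.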

Additional observations from a re-analysis of the deposited data

How the results depend on the processing

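The number of regions meeting the rule was 555. It was 910 at a control minimum of 15 CPM and 272 at 30 CPM, 258 at a ratio minimum of 2, and 331 with recovered reads not scaled for depth, of which 304 were among the 555. Leaving out 1 mouse gave 617 to 684, with 458 to 533 shared. The median ratio was 2.14 and 1.83 at control minimums of 15 and 30 CPM and 2.46 at a ratio minimum of 2, the median length 570 bp, 890 bp and 709.5 bp, and the share within 1 kb of a gene end 20.3%, 32.7% and 16.3%. A limit of 5 kb in place of 1 kb gave 42.5%. Without 1 mouse, these ran from 1.84 to 1.94, from 635 to 669 bp and from 25.4% to 27.2%, and the share overlapping a gene from 67.9% to 68.9%. Regions called higher by limma numbered 2475 of all and 401 of the 555, and 536 were called lower. Limited to regions of at least median mean CPM, 481 were higher and 235 lower. Without depth scaling 1394 were higher, 95 of them among the 555, and 14 lower. DESeq2 called 251 lower. Leaving out 1 mouse gave 1577 to 2332 higher, 270 to 454 lower and 258 to 369 of the 555, with the lowest counts without NR4A2 mouse 3, and 354 lower without control mouse 3. Mouse numbers did not pair the mice: deviations of same-numbered mice correlated at -0.066, 0.061 and 0.033. With a replicate block, 2540 were higher, 580 lower and 407 of the 555 higher. The log2 fold changes of 120 named regions shifted by -0.54 to 0.56 when 1 mouse was left out and by -0.27 to 0.135 under edgeR. For regions chosen by the rule the choice largely fixes the sign, which says nothing of stability. Changed limits and a smaller set of regions alter counts by construction, and the cause of the other changes was not tested. Depth limits single values most in control mouse 3, where the median of the 555 regions rested on 17 reads.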
